A study of Ovis aries with 16 samples.

Results

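The block around miR-127 and miR-136 is the group of miRNAs at the upstream end of the imprinted miRNA region on sheep chromosome 18, and it was measured here in the testis of sexually mature Merino males on different diets. Its members were all known sheep miRNAs (names starting with oar-) of miR-127, miR-136, miR-370, miR-431, miR-432, miR-433, miR-493 and miR-665, on any arm of the precursor. The files listed 8 such miRNAs among 271 miRNAs, of which 103 were known and 168 predicted by the study, and among 5267 small RNAs when the piRNAs were included. They were oar-miR-127, oar-miR-136, oar-miR-370-3p, oar-miR-431, oar-miR-432, oar-miR-493-3p, oar-miR-493-5p and oar-miR-665-3p. miR-433 was not analysed here.

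One group of 8 males, called well-fed, was fed to gain 10% of body mass within 65 days, and the other 8, called underfed, were fed so that body mass fell by 10% in the same time. Each male gave 1 testis library, with no pooling and no genetic modification in either group. Values are CPM, the reads of a miRNA per 1000000 miRNA reads of its library. The question was which miRNAs of the testis differ in level between the diets.

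The region between DLK1 and DIO3 is imprinted in mammals, so that its genes are expressed mainly from the chromosome of one parent. Its non-coding RNAs, including GTL2 and many miRNAs, come from the maternal chromosome, while the protein-coding genes DLK1 and RTL1 come from the paternal chromosome. Several miRNAs of the block are processed from a transcript antisense to RTL1, a gene derived from a retrotransposon, and can direct cleavage of the RTL1 mRNA because they match it. The libraries carry no allele information, so parental origin was not measured.

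In the RefSeq annotation of the assembly ARS-UI_Ramb_v3.0, the order along chromosome 18 was DLK1, GTL2, MIR493, MIR665, RTL1, MIR431, MIR433, MIR127, MIR432, MIR136 and MIR370. MIR431, MIR433, MIR127, MIR432 and MIR136 lay within the span of RTL1. MIR493 and MIR665 lay between GTL2 and RTL1, and MIR370 lay beyond RTL1, before a run of snoRNA genes and MIR379. The authors used the assembly Oar_v3.1, so the order is given without coordinates.

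The libraries held 17163 to 503916 miRNA reads in the well-fed males and 27797 to 1058985 in the underfed males, as recovered from the CPM values. 3 libraries held fewer than 100000 miRNA reads, namely well-fed 5, underfed 6 and underfed 8, and 3 reads in them were worth 174.8, 107.9 and 59.9 CPM. Underfed 1 also stood apart from the other underfed males. The log2 of its miRNA reads over its piRNA reads was -0.95, within the well-fed range of -1.49 to -0.14 and outside the range of 0.49 to 1.64 of the other 7 underfed males. Fits between the diets are given with and without these libraries, while the correlations leave out the shallow libraries only and include underfed 1. The 3 predicted miRNAs that the study paired with miR-34b, miR-34c and miR-449a, which are abundant in meiotic and later germ cells, were above 0 in every library, as were both smooth muscle markers, and piRNAs were listed in all libraries.

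oar-miR-127 supplied nearly all reads of the block. It made up 91.1% to 97.9% of the block's CPM in the 16 libraries, and its median level of 6320 CPM ranked 25 among the 271 miRNAs. Among all miRNA reads, the whole block accounted for 0.758% ± 0.122 (SD, n = 8) in the well-fed males and 0.590% ± 0.328 (SD, n = 8) in the underfed males. The other 7 members together had 42 to 164 reads in each of the 13 libraries above 100000 miRNA reads and 3 to 27 reads in the other 3.

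By median CPM over the 16 libraries, oar-miR-127 was followed by oar-miR-493-5p at 73.5, oar-miR-432 at 61.8, oar-miR-136 at 39.3, oar-miR-665-3p at 28.0, oar-miR-493-3p at 16.9, oar-miR-370-3p at 3.40 and oar-miR-431 at 2.89 CPM. The first step was large and without exception. oar-miR-127 exceeded oar-miR-493-5p in 16 of 16 libraries, with a geometric mean ratio of 92.0 over the 15 libraries where both were above 0. The step from oar-miR-493-3p down to oar-miR-370-3p was clear as well, with oar-miR-493-3p higher in 14 libraries and lower in none. The order of most neighbours between these steps varied between libraries. oar-miR-493-5p was above oar-miR-432 in 10 libraries and below it in 5, oar-miR-136 was above oar-miR-665-3p in 10 and below it in 6, and oar-miR-665-3p was above oar-miR-493-3p in 10 and below it in 5. oar-miR-432 was above oar-miR-136 in 14 of 16 libraries and in 12 of the 13 deep ones. Their log2 ratio had a mean of 0.55 and an SD of 1.23 over the 15 libraries where both were above 0. oar-miR-370-3p and oar-miR-431 each exceeded the other in 6 libraries.

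**Figure D1:**
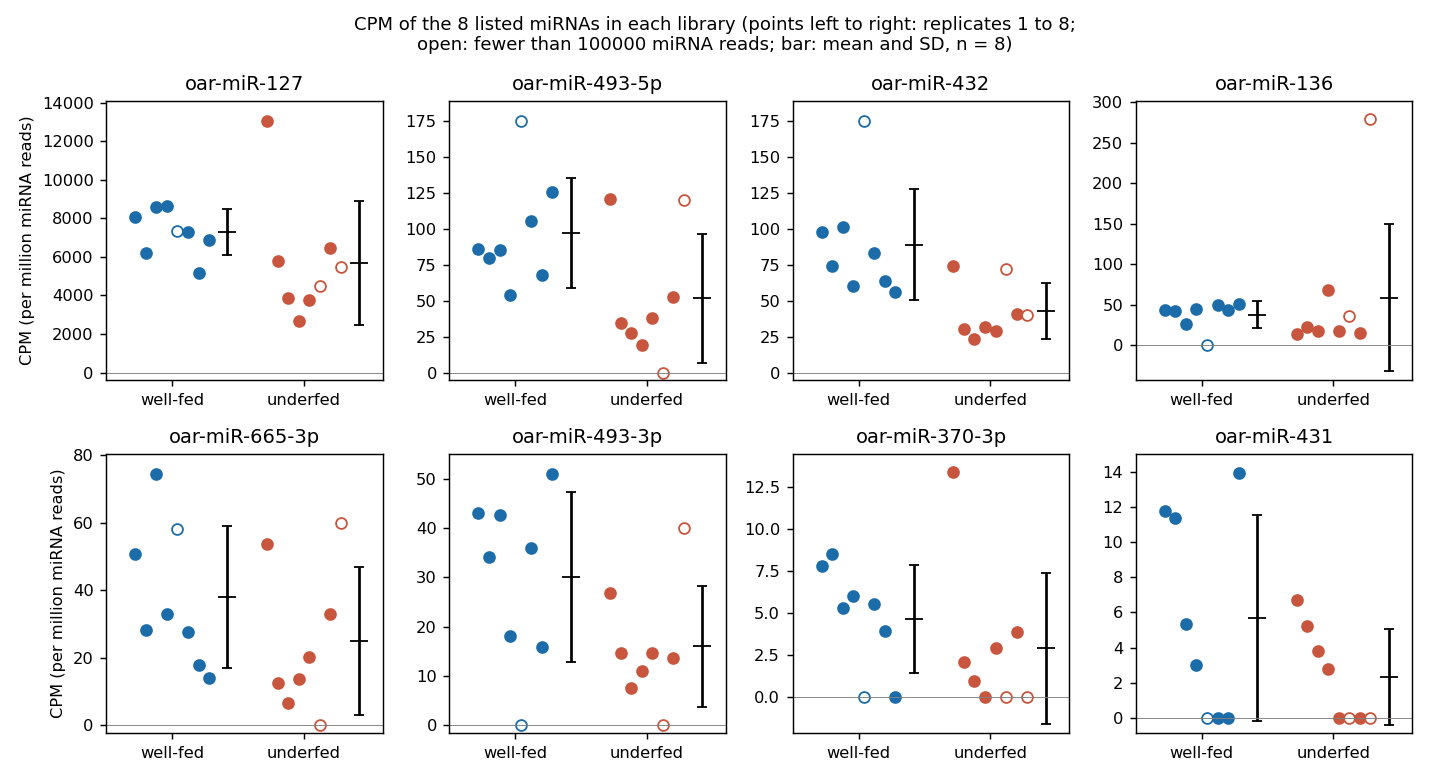
CPM of the 8 listed miRNAs (vertical axes, a separate linear scale in each panel) in each library of the 8 well-fed (blue) and 8 underfed (red) males, in replicate order from left to right, with open points for the 3 libraries below 100000 miRNA reads and bars for the mean and SD. The oar-miR-127 axis reaches far above the other axes, and underfed 1 at 13061 CPM is the highest oar-miR-127 point.

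oar-miR-127, from the transcript antisense to RTL1, had 5179, 7317 and 8646 CPM as the lowest, median and highest well-fed values and 2671, 4993 and 13061 CPM as the underfed ones. Underfed 1 was above every well-fed male, 4 of the other 7 underfed males were below every well-fed male, and the ranges overlapped. The means were 7274 ± 1194 CPM (SD, n = 8) in the well-fed and 5698 ± 3219 CPM (SD, n = 8) in the underfed males, a ratio of 0.783. The limma fit used log2(CPM + 1) after scaling by TMM. That normalization gives each library a factor on the assumption that most miRNAs do not differ between libraries. In this fit the log2 fold change of oar-miR-127 (underfed minus well-fed) was -0.014 ± 0.21 (SE). Its adjusted p was 0.970 by Benjamini-Hochberg over the 244 miRNAs tested. The 95% interval was -0.44 to 0.41.

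oar-miR-432, from the same transcript, had 55.6, 78.3 and 174.8 CPM as the lowest, median and highest well-fed values and 23.6, 35.9 and 73.8 CPM as the underfed ones. 6 of the 8 underfed males were below all well-fed males, and the exceptions were underfed 1 and the shallow underfed 6, whose 72.0 CPM stood for 2 reads. Among the 6, the 39.9 CPM of the shallow underfed 8 also stood for 2 reads. The highest well-fed value, in well-fed 5, stood for 3 reads. The means were 88.7 ± 38.7 and 42.7 ± 19.4 CPM (SD, n = 8 each), a ratio of 0.481, and the limma log2 fold change was -0.59 ± 0.37 (SE) with a Benjamini-Hochberg adjusted p of 0.319.

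oar-miR-136, the most downstream of the miRNAs within the RTL1 span, had 0, 43.4 and 51.0 CPM as the lowest, median and highest well-fed values and 13.4, 19.99 and 279.4 CPM as the underfed ones. The lowest well-fed and the highest underfed value both came from shallow libraries, with 0 reads in well-fed 5 (3 reads would be 174.8 CPM) and 14 reads in underfed 8. In the deep libraries, 7 well-fed males lay between 26.6 and 51.0 CPM, 5 underfed males between 13.4 and 22.0 CPM, and underfed 4 at 67.9 CPM (49 reads) above them all. The limma log2 fold change was 0.71 ± 0.77 (SE) with a Benjamini-Hochberg adjusted p of 0.558 in the 16 libraries and -0.46 ± 0.38 (SE) with an adjusted p of 0.381 in the 13 deep ones, so its direction turned with the shallow libraries. Without well-fed 5 alone it was 0.059, and without underfed 8 alone 0.30.

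oar-miR-431, the first miRNA within the RTL1 span, had 24 reads in all 16 libraries together. It lay at 0, 4.16 and 13.9 CPM as the lowest, median and highest well-fed values and at 0, 1.39 and 6.71 CPM as the underfed ones. No read was listed in 3 of the well-fed and 4 of the underfed libraries, the ranges overlapped, and it did not reach the level required for the test, which was a CPM above 5 in at least 8 libraries.

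The miR-493 precursor lies upstream of RTL1 and gave both arms. oar-miR-493-5p had 54.0, 85.7 and 174.8 CPM as the lowest, median and highest well-fed values and 0, 36.3 and 120.7 CPM as the underfed ones. Underfed 1 and the shallow underfed 8 lay within the well-fed range, and the other 6 underfed males, one of them at 0 reads in a shallow library, lay below it. The means were 97.2 ± 38.1 and 51.5 ± 45.01 CPM (SD, n = 8 each), and the limma log2 fold change was -1.21 ± 0.71 (SE) with a Benjamini-Hochberg adjusted p of 0.292. It was -0.53 ± 0.37 (SE) without underfed 6, the library at 0 reads, and -0.54 in the 13 deep libraries.

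oar-miR-493-3p had 0, 35.0 and 51.0 CPM as the lowest, median and highest well-fed values and 0, 14.1 and 39.9 CPM as the underfed ones. Both values of 0 came from shallow libraries, and the diets overlapped. The limma log2 fold change was -0.45 ± 0.80 (SE) with a Benjamini-Hochberg adjusted p of 0.728. It was 0.038 without underfed 6 alone and -1.05 without well-fed 5 alone. In the 13 deep libraries it was -0.69 ± 0.33 (SE), in the same direction as in the 16 libraries.

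The 5p arm held most miR-493 reads in each of the 15 libraries with any. Its share was 63.6% to 81.8% in the 13 deep libraries, with means of 72.1% ± 5.12 (SD, n = 7) in the well-fed and 74.3% ± 6.84 (SD, n = 6) in the underfed males. The difference between the diets was smaller than the spread within them, at 18 to 68 reads of both arms per deep library.

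**Figure D2:**
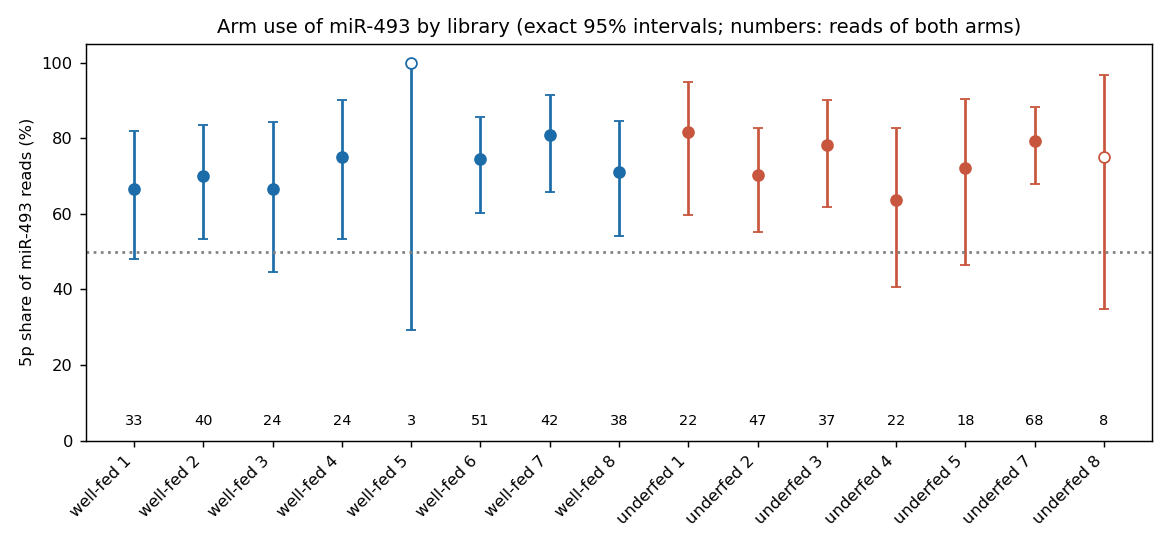
Share of the 5p arm among all miR-493 reads (vertical axis, percent) in each library with miR-493 reads, with exact 95% binomial intervals for counting error, the number of reads at the base and open points for libraries below 100000 miRNA reads. Every point lies above the dotted line at 50%, and the well-fed (blue) and underfed (red) shares overlap.

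oar-miR-665-3p, also encoded upstream of RTL1, had 13.9, 30.7 and 74.6 CPM as the lowest, median and highest well-fed values and 0, 17.1 and 59.9 CPM as the underfed ones. The diets overlapped widely, and the limma log2 fold change was -0.71 ± 0.70 (SE) with a Benjamini-Hochberg adjusted p of 0.533. It was -0.16 without underfed 6, where no read was found, and -0.21 in the 13 deep libraries. oar-miR-370-3p, encoded beyond RTL1, had 22 reads in all and was not tested. It lay at 0, 5.43 and 8.52 CPM as the lowest, median and highest well-fed values and at 0, 1.52 and 13.4 CPM as the underfed ones, the last from 2 reads in underfed 1.

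Of the 6 members tested, 0 were called between the diets by limma at an adjusted p under 0.05 with a ratio of mean CPM under 0.67 or above 1.5, and 0 had an unadjusted p under 0.05. Over all 244 miRNAs tested, 8 or 3.28% were called and 63 or 25.8% had an unadjusted p under 0.05. The log2 fold change was below 0 for 5 of the 6 members and for 52.9% of all miRNAs tested, and the median was -0.52 over the members and -0.076 over all. Of 45 other known miRNAs listed from the downstream part of the region, 40 were tested, 35 had a log2 fold change below 0, 3 were called, all lower in underfed, and the median was -0.75. In whole testis, fewer cells of a type and less RNA per cell cannot be told apart.

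The scaling between libraries decided the direction for 4 of the 6 members. The TMM factors themselves followed diet, at 1.078 to 1.387 in the well-fed and 0.698 to 1.26 in the underfed libraries. With CPM left unscaled, the median log2 fold change over all miRNAs tested was -0.51 and that of the members -0.94, and 0 of 6 members were called by limma against 14.8% of all. When miRNAs and piRNAs were scaled jointly, the median over all was 0.81 and that of the members 0.37. oar-miR-127 then had a log2 fold change of 0.94 with a Benjamini-Hochberg adjusted p of 0.00957 by limma. Its mean ratio of 1.22 kept it from being called, but that ratio was taken before the TMM factors and the log2 fold change after them. On the adjusted p, 1 of 6 members passed against 34.8% of all, and 0 of 6 against 24.6% were called. In that fit oar-miR-432, oar-miR-493-3p and oar-miR-665-3p turned to 0.34, 0.39 and 0.30. Relative to the median of all miRNAs, oar-miR-432, oar-miR-493-3p, oar-miR-493-5p and oar-miR-665-3p had lower values and oar-miR-136 a higher value under each of these scalings of the 16 libraries, and differences from that median were not tested.

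**Figure D3:**
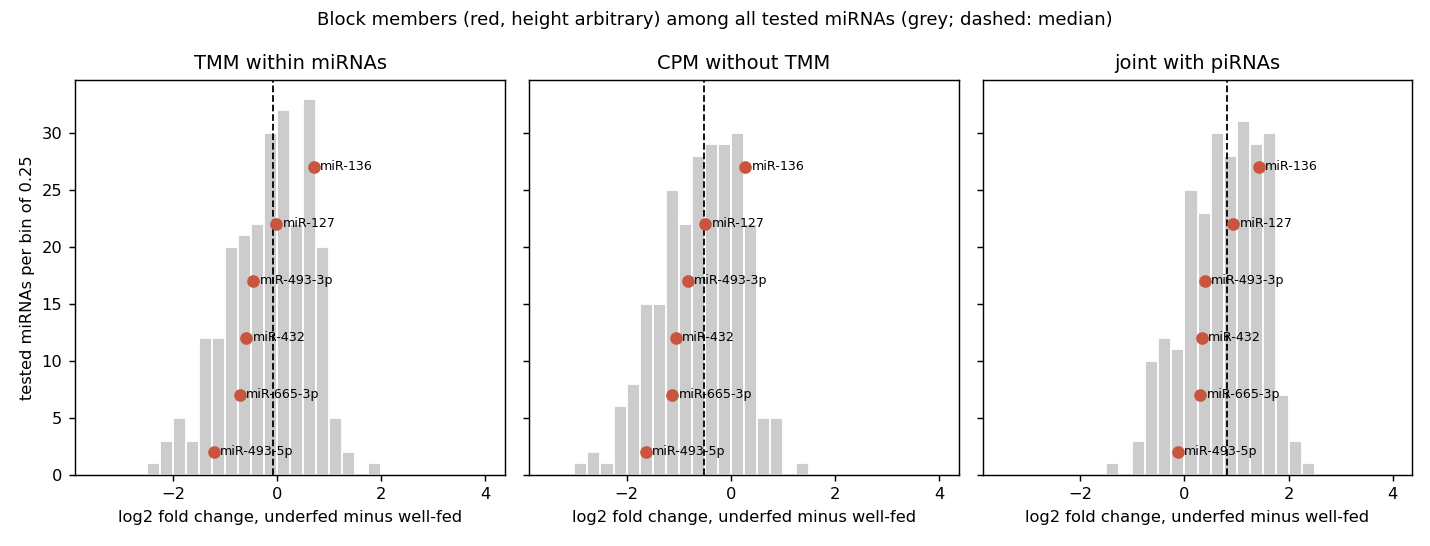
Log2 fold changes (horizontal axis, underfed minus well-fed) of the 6 tested members (red points, height arbitrary) over the distribution of all 244 tested miRNAs (grey bars, count per bin), under TMM, no TMM and joint scaling, with a dashed line at the median of all. The whole distribution shifts from a median of -0.51 without TMM to 0.81 with joint scaling, and the members shift with it.

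Leaving out the 3 shallow libraries kept the median of the members at -0.50. In the 13 deep libraries with TMM, oar-miR-432 had a log2 fold change of -0.57 ± 0.25 (SE) and oar-miR-493-3p of -0.69 ± 0.33 (SE), with Benjamini-Hochberg adjusted p of 0.105 and 0.130 by limma. 0 of 6 members were called there, against 10.2% of all miRNAs. In the same libraries without TMM, a setting chosen after seeing the data, 4 of 6 members were called lower in underfed, against 31.6% of all miRNAs tested. They were oar-miR-136 at -0.94, oar-miR-432 at -1.05, oar-miR-493-3p at -1.16 and oar-miR-493-5p at -1.02 (log2), with limma adjusted p of 0.0427, 0.0115, 0.0235 and 0.0322, and the median over all miRNAs tested was -0.49 in that fit.

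**Figure D4:**
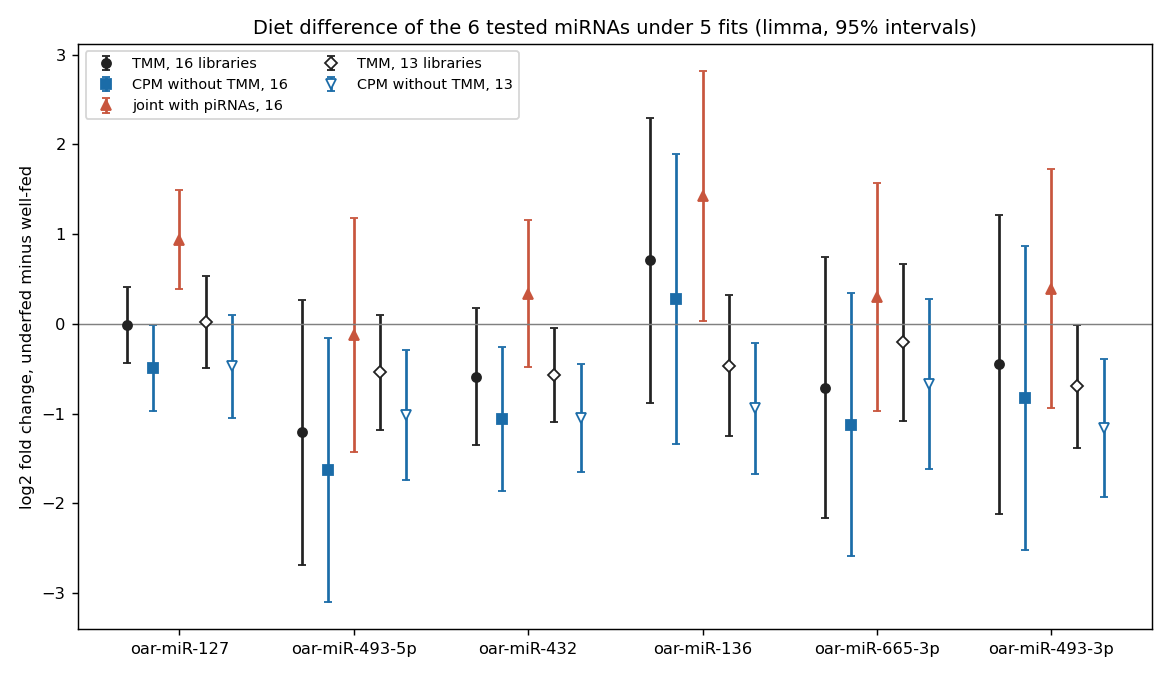
Log2 fold change (vertical axis, underfed minus well-fed) of the 6 tested members with 95% intervals from limma in 5 fits, with filled symbols for 16 and open symbols for 13 libraries. oar-miR-136 lies at 0.71 with TMM in 16 libraries and at -0.46 in 13, and oar-miR-127 moves from -0.49 without TMM to 0.94 with joint scaling.

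The CPM ranges of the diets overlapped for all 6 tested members in the 16 libraries and in the 13 deep ones, where 2.05% and 5.74% of all miRNAs lay wholly lower in underfed. Underfed 1 was then also left out, a choice made after its high oar-miR-127 level was seen. Without it, oar-miR-432, oar-miR-493-3p and oar-miR-493-5p lay wholly lower in underfed, which was 3 of 6 members against 20.9% of all miRNAs. For oar-miR-432 the closest males were underfed 7 at 40.9 and well-fed 8 at 55.6 CPM. For oar-miR-493-3p they were underfed 2 at 14.7 and well-fed 7 at 15.9, and for oar-miR-493-5p underfed 7 at 52.5 and well-fed 4 at 54.0. Both miR-493 gaps were smaller than 1 read of the well-fed library and so within counting error. In the 12 deep libraries without underfed 1 and with TMM, oar-miR-493-5p met the rule for a call at -0.73 ± 0.29 (SE) with a limma adjusted p of 0.0461. So did 21.3% of all miRNAs. In the 15 libraries without underfed 1 and without TMM, also chosen after seeing the data, 2 of 6 members had values that met the rule for a call, against 23.8% of all miRNAs. They were oar-miR-432 at -1.18, with a limma adjusted p of 0.0230, and oar-miR-127 at -0.68. Underfed 1 held the highest underfed value of oar-miR-127, oar-miR-432 and oar-miR-493-5p and, among the deep libraries, of oar-miR-493-3p. The values of these members without underfed 1 are therefore descriptions and no tests.

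The levels relative to oar-miR-127 use only reads of the same library and so no scaling between libraries. In the deep libraries, oar-miR-432 had 6.94 to 12.3 reads per 1000 oar-miR-127 reads in the well-fed and 5.25 to 11.9 in the underfed males, and oar-miR-493-5p had 6.25 to 18.2 and 5.98 to 10.0. These ranges overlapped. oar-miR-136 had 3.104 to 8.43 in the well-fed and 1.03 to 25.4 in the underfed males, with underfed 1 lowest and underfed 4 highest. Its wide spread was in the underfed males, with an SD of 9.13 beside 1.76 in the well-fed. By limma on the log2 ratio to oar-miR-127, 0 of 5 members and 0 of 243 miRNAs had a Benjamini-Hochberg adjusted p under 0.05, while 36 miRNAs (14.8%), 0 of them members, had an unadjusted p under 0.05. The member log2 differences were 0.77 for oar-miR-136, -0.56 for oar-miR-432, -0.34 for oar-miR-493-3p, -1.14 for oar-miR-493-5p and -0.63 for oar-miR-665-3p in the 16 libraries. In the 13 deep libraries oar-miR-136 turned to -0.47, and the others were -0.58, -0.69, -0.55 and -0.20 in the same order. Without underfed 6 alone, oar-miR-493-3p turned to 0.15, oar-miR-493-5p was -0.47 and oar-miR-665-3p was -0.090, while without well-fed 5 alone oar-miR-493-3p was -0.97 and oar-miR-136 was 0.088, and without underfed 8 alone oar-miR-136 was 0.35.

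**Figure D5:**
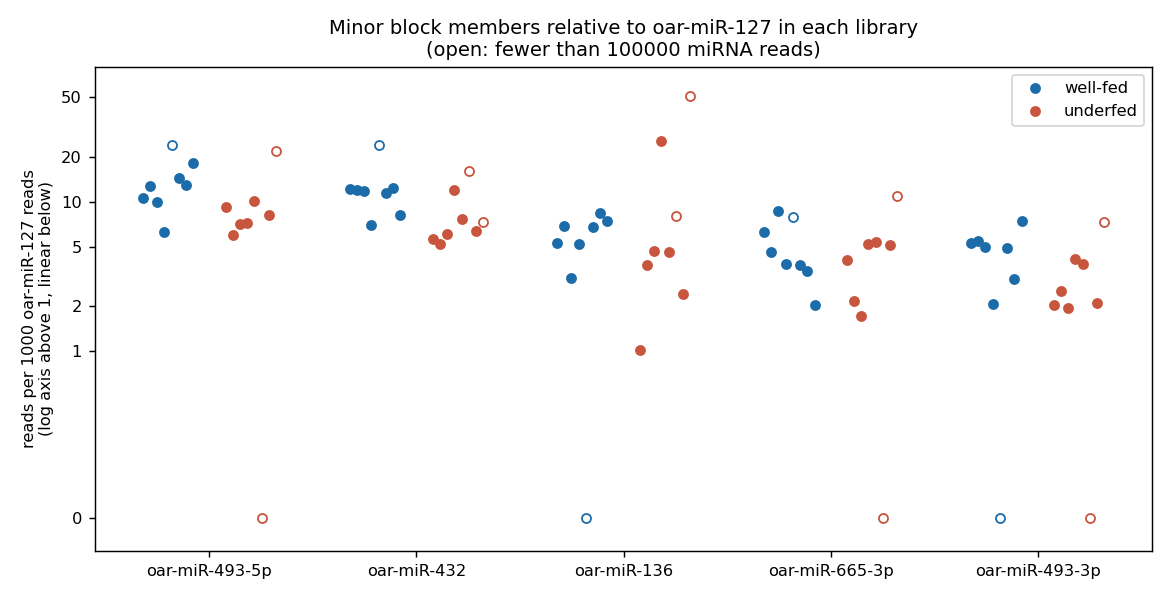
Reads of the 5 other tested members per 1000 oar-miR-127 reads (vertical axis, logarithmic above 1 and linear below) in each well-fed (blue) and underfed (red) library, with open points below 100000 miRNA reads. In the deep libraries oar-miR-136 spans 1.03 to 25.4 in the underfed males, and both diets overlap for every member.

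Across the 13 deep libraries, after the diet means were taken out of log2(TMM-scaled CPM + 1), Pearson's r between pairs of members ran from -0.60 to 0.84 over 15 pairs, with a median of 0.38 beside 0.026 over all pairs of tested miRNAs. Between members and the other chromosome 18 miRNAs, r ran from -0.88 to 0.91 over 240 pairs, with a median of 0.089. The points share libraries and depth, and many values rest on few reads. oar-miR-432 and oar-miR-665-3p were each other's closest match at r = 0.84. oar-miR-127 was most like oar-miR-409-3p (r = 0.91) and oar-miR-411b-3p (r = 0.81), both from the downstream part of the region, and oar-miR-493-5p was most like oar-miR-380-3p (r = 0.90), also from there, and the predicted candidate-miR-168 (r = 0.88). oar-miR-493-3p was most like oar-miR-181a (r = 0.83) and oar-miR-487b-3p (r = 0.81). oar-miR-136 had a negative r to each of the other 5 members in these libraries, and was most like the predicted candidate-miR-166 (r = 0.92) and candidate-miR-109 (r = 0.88). Among the deep libraries, underfed 4 held its highest CPM and the lowest of oar-miR-127 and oar-miR-493-5p. Underfed 1 held its lowest CPM, from 2 reads, and the highest of oar-miR-127. The r values without these males were not computed.

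Of 6 cell type markers, 2 germ cell markers passed the test between the diets with TMM and the other 4 did not. The 3 germ cell markers summed to 47497 to 71079 CPM in the well-fed and 10978 to 58155 CPM in the underfed males, none was at 0 in any library, all 3 had lower mean CPM in underfed, and the markers paired with miR-34c and miR-449a each had a limma adjusted p of 0.0256 with TMM, beside 0.0931 for that paired with miR-34b. With joint scaling their log2 fold changes were 0.15, 0.050 and 0.18. The 2 smooth muscle markers summed to 153985 to 210989 CPM in the well-fed and 138660 to 215633 CPM in the underfed males, and the 1 blood marker had 2336 to 7829 and 1372 to 8546 CPM, with limma adjusted p of 0.112, 0.151 and 0.734 for these 3. Underfed 1, with the highest oar-miR-127, had 44629 CPM of germ cell markers and the lowest smooth muscle sum. The part of cell composition in the values of the block was not tested.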

How the data were processed

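Testis small RNAs of 16 males (8 well-fed, 8 underfed by the labels) were sequenced by the authors, 1 library per male. The authors demultiplexed reads with CASAVA 1.8, filtered out matches to further non-coding RNAs, obtained counts of miRNAs and, by perfect matches to Oar_v3.1, of piRNAs, and tested these with edgeR. The deposited values are CPM by the authors, divided within each class and stacked in 1 column per library. Reads were recovered by dividing by the value of 1 read, and all 128 member values were whole within 0.02 reads. Among the low values of all miRNAs, 93.7% (underfed 2) to 99.0% (underfed 6) per library were whole reads and the rest were not.

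limma 3.58.1 in R 4.3.3, with the empirical Bayes trend, was fitted without covariates to log2(CPM + 1) after TMM factors from an own implementation over all 271 listed miRNAs (30% of log ratios and 5% of abundances trimmed). The first fit used TMM factors over the 244 tested miRNAs only, and it was replaced after its result was seen, so it is given as an alternative. The test covered miRNAs exceeding 5 CPM in 8 or more of the 16 libraries and was two-sided, with Benjamini-Hochberg adjustment over all. The fold change is on the log2(CPM + 1) scale. For low miRNAs its size depends on the pseudocount and on shallow libraries where no read was found. With TMM, oar-miR-493-5p was at -1.63, -1.21 and -0.90 with pseudocounts of 0.1, 1 and 5 CPM, and at -0.54 in the deep libraries. A call needed an adjusted p under 0.05 and a ratio of mean CPM under 0.67 or above 1.5 on the same side. The ratio was taken before the TMM factors, which followed diet, and the log2 fold change of the fits with TMM after them. In the main fit, 6 miRNAs lower and 9 higher in underfed passed on the limma adjusted p, of which 6 and 2 were called. The fits were also run on simulated reads with the same spread for every miRNA and as many miRNAs raised as lowered. That run does not cover scaling that follows diet or a library such as underfed 1. Reads are not independent molecules, so intervals and floors cover counting error only. Each library came from 1 male, and the p-values set the diet difference against the spread between these males, counting error included.

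All listed members are named, with the 2 tested miRNAs most correlated with each and the cell type markers. The members and lists were chosen with earlier results of these data known. Gene order came from RefSeq. Sequences and coordinates of the miRNAs were not used here. Alternatives were other scalings, pseudocounts, filters, voom, a replicate block, deep libraries only and leaving out each male.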

Additional observations from a re-analysis of the deposited data

Results flagged for a closer look

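In 4 of 16 groups (8 miRNAs by 2 diets) the most extreme male stood further from the next than Dixon's 95% critical ratio for 8 values. The rate of about 1 in 20 behind that ratio is for independent normal values of equal error. These groups share libraries and many values rest on few reads, so the count cannot be set against that rate. oar-miR-127 in underfed 1 was 13061 CPM (1948 reads), with the next underfed male at 6441 CPM. oar-miR-136 in underfed 8 was 279.4 CPM, from 14 reads in a shallow library, with the next male at 67.9 CPM. oar-miR-370-3p in underfed 1 was 13.41 CPM, from 2 reads, and oar-miR-432 in well-fed 5 was 174.8 CPM, from 3 reads.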

How the results depend on the processing

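Pseudocounts of 0.1 and 5 CPM, no filter and TMM factors over the tested miRNAs only (7 miRNAs called) changed no call or direction of a member. The number of miRNAs called moved from 8 to 36 without TMM, 60 with joint scaling, 26 with voom, 25 in the 13 deep libraries (also 25 there without the filter, 29 with voom and 77 without TMM), 52 with underfed 1 left out of these, and 58 without TMM and underfed 1. Members called moved from 0 to 4 in the deep libraries without TMM, 1 in them with underfed 1 left out, and 2 without TMM and underfed 1, where oar-miR-127 was -0.68 and oar-miR-432 -1.18. All 3 of these settings were chosen after seeing the data, as were TMM over the tested miRNAs and the deep libraries with voom or without the filter. The member values without underfed 1 are descriptions and no tests. In the deep libraries oar-miR-432 was -1.05, oar-miR-493-3p -1.16 and oar-miR-493-5p -1.02 without TMM, and oar-miR-493-5p was -0.73 with underfed 1 left out. oar-miR-127 turned to 0.94 with joint scaling and to 0.019 in the deep libraries, with or without the filter, and 0.013 with voom there. oar-miR-136 turned to -0.17 with voom and, in the deep libraries, to -0.46 with or without the filter, -0.37 with voom, -0.94 without TMM and -0.22 with underfed 1 left out. Joint scaling turned oar-miR-432 to 0.34, oar-miR-493-3p to 0.39, oar-miR-665-3p to 0.30 and the member median to 0.37. Relative to oar-miR-127, oar-miR-136 turned to -0.47 in the deep libraries and -0.072 with underfed 1 left out, where 26 miRNAs and 0 members were called. Apart from scaling and the libraries removed, the cause was not tested.

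Leaving out 1 male at a time gave 0 to 21 miRNAs called and 0 members called, log2 fold changes of -0.14 to 0.051 for oar-miR-127 and -1.05 to 0.038 for oar-miR-493-3p, and -0.97 to 0.15 for oar-miR-493-3p relative to oar-miR-127, where 0 to 8 miRNAs were called, 8 of them without underfed 1. The deviations of males with the same replicate number had r from -0.18 to 0.28 (mean 0.047, beside 0.0058 for other numbers), and 5 of 16 males were closest to their own number, where chance gives about 2. These values do not settle whether the numbers mark pairs. The main fit took no pairs, and the replicate block is given as an alternative. With the replicate block, 7 miRNAs and 0 members were called and no member turned direction. voom was not run on levels relative to oar-miR-127. In the 3 shallow libraries, a level below 59.9, 107.9 or 174.8 CPM stood for fewer than 3 reads.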
